A study of Caenorhabditis elegans with 92 samples.

Results

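SCC-2 (also named PQN-85) is the worm version of the protein that loads cohesin onto chromosomes, known as Scc2 in yeast and NIPBL in human. Cohesin and the condensins are ring-shaped complexes of structural maintenance of chromosomes (SMC) proteins that hold and fold DNA. In C. elegans hermaphrodites, SDC-2 brings a dosage compensation form of condensin, condensin I-DC, to recruitment sites on both X chromosomes, from which it spreads and lowers X expression. Males do not use this system. The comparison described here asks how SCC-2 binding on the X and on the autosomes differed where SDC-2 was missing.

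The members are the SCC-2 peaks of mixed stage embryos in the sdc-2 mutant and in wild type, 315 and 1167 peaks, or 1482 of the 20438 peaks in 17 peak lists of the series. The mutant strain was TY1072, with sdc-2(y74) on the X and her-1(e1520) on chromosome V, and the wild type was N2. Per the study's methods, TY1072 is an sdc-2 null, genetically male and tetraploid strain with fewer X copies than copies of each autosome. It also carries an allele of her-1, a gene that directs male development. Loss of sdc-2, the her-1 allele, the ploidy and the X dose therefore cannot be told apart. Both genotypes were measured by chromatin immunoprecipitation and sequencing (ChIP-seq) with 1 rabbit antibody against SCC-2, in 3 replicates each, with an input per replicate. Embryos of both were fixed with formaldehyde, and whole embryos mix all cell types.

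The authors pooled the reads of the 3 replicates, called peaks and kept those also found in most replicates. Each genotype thus has 1 list without replicate values, and no spread between replicates and no test can be given for any difference below. Intervals in parentheses are exact (Clopper-Pearson) 95% intervals over peaks and cover counting error only. The lists carry no read counts, so no depth was computed, and how depth bears on the length of a list was not tested. A peak's score is the peak caller's significance on a log scale, with a cap of 3100. The lowest scores were 100.23 in the mutant list and 100.46 in the wild-type list.

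Most wild-type SCC-2 peaks had no counterpart in the mutant. The mutant list was 27.0% as long as the wild-type list and covered 0.529 Mb, against 2.02 Mb in wild type. With 1 shared base as the criterion, 889 of the 1167 wild-type peaks (76.2%) were lost and 278 (23.8%, 21.4 to 26.4) were kept. The mutant list added little, since 26 of its 315 peaks (8.25%, 5.46 to 11.9) were new. The median width was 1366 bp in the mutant and 1352 bp in wild type. The median score was 217 in the mutant and 334 in wild type, and 2 mutant peaks and 43 wild-type peaks reached the cap. Peaks of a non-specific IgG immunoprecipitation in wild type lay at 0 of 69 X and 10 of 246 autosomal mutant peaks, and at 2 of 297 X and 11 of 870 autosomal wild-type peaks.

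Peaks were lost from every chromosome, and the X as a whole stood little apart. Of 297 wild-type X peaks, 60 were kept (20.2%, 15.8 to 25.2), against 218 of 870 autosomal peaks (25.1%, 22.2 to 28.1). X minus autosomes was -4.86 percentage points, with an interval of -10.2 to 0.92 that includes 0. It was -20.5 points (-32.7 to -7.97) with the wild-type list reduced to its 315 highest scores and -11.9 points (-18.7 to -4.17) with both lists from their median score. Chromosome III had the highest kept share, 52 of 173 peaks (30.1%, 23.3 to 37.5), and chromosome II the lowest of the autosomes, 38 of 173 peaks (22.0%, 16.0 to 28.9). The interval of the X overlapped that of each autosome. The X made up 21.9% (17.5 to 26.9) of the mutant list and 25.4% (23.0 to 28.1) of the wild-type list, where it holds 17.7% of the sequence spanned. In peaks per Mb the X had 3.89 in the mutant and 16.8 in wild type, against 2.99 and 10.6 on the autosomes.

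**Figure D1:**
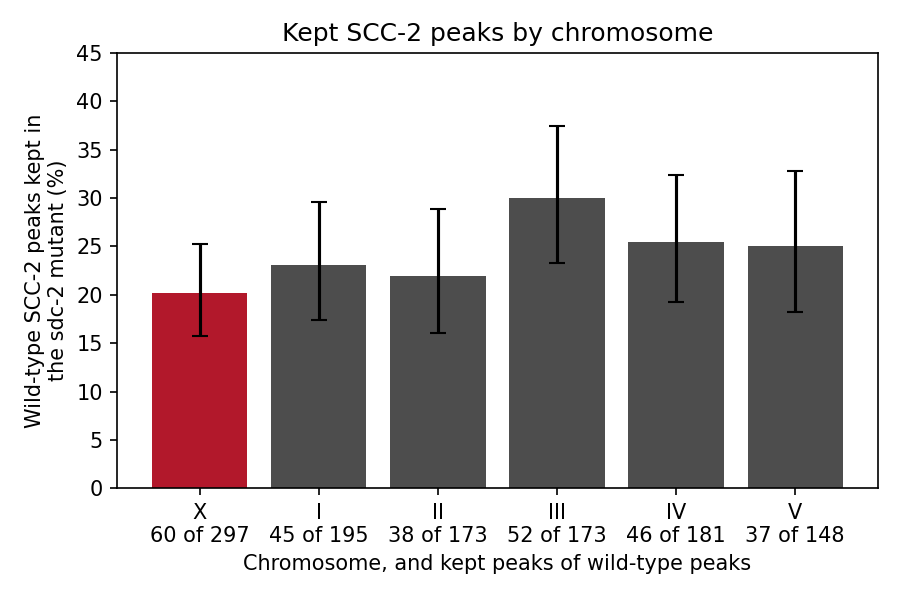
Share of wild-type SCC-2 peaks (%) that shared at least 1 base with a mutant SCC-2 peak, by chromosome, with the numbers of peaks under each bar. Bars are shares and error bars exact 95% intervals over peaks; the X bar (20.2%) is the lowest and chromosome III (30.1%) the highest, with overlapping intervals.

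Along the X the kept share was even. In 5 equal parts of the chromosome it lay between 16.7% and 23.7%. On the autosomes the parts at the ends kept more, 28.5% and 34.6% of peaks, than the middle part, 18.6% (13.8 to 24.1). A lost peak was usually far from any mutant peak. The median distance to the nearest mutant SCC-2 peak was 70.0 kb for lost X peaks and 116 kb for lost autosomal peaks, and 1 of 237 and 8 of 652 lay within 500 bp. Few losses were therefore small shifts of a peak.

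Kept peaks were the stronger and wider peaks of the wild-type list. On the X the median score was 310 for lost and 884.5 for kept peaks, and the median width 1283 bp and 1784.5 bp. On the autosomes the median score was 269.5 for lost and 998 for kept peaks, and the median width 1262 bp and 1885.5 bp. By width, the narrowest of 4 classes kept 2 of 67 X peaks (2.99%) and 13 of 225 autosomal peaks (5.78%). The widest class, from 1927 bp, kept 29 of 59 X peaks (49.2%, 35.9 to 62.5) and 102 of 233 autosomal peaks (43.8%, 37.3 to 50.4).

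The X and the autosomes were furthest apart among the strongest peaks. The wild-type list was divided by score into 5 classes of equal size. In the lowest class 2 of 48 X peaks (4.17%) and 7 of 186 autosomal peaks (3.76%) were kept, and in the fourth 14 of 62 X peaks (22.6%, 12.9 to 35.0) and 52 of 171 autosomal peaks (30.4%, 23.6 to 37.9). In the highest class, from a score of 803, 38 of 74 X peaks (51.4%, 39.4 to 63.1) were kept, against 128 of 160 autosomal peaks (80.0%, 73.0 to 85.9). X minus autosomes was -28.6 points there (-41.9 to -14.9). Among the autosomes, chromosome II was lowest in this class with 19 of 30 peaks (63.3%, 43.9 to 80.1), and the others lay between 75.9% and 86.7%.

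The X dose also differed between the genotypes, and its bearing on this difference cannot be told apart from that of sdc-2. If a score is taken to scale with the number of X copies, an X peak in the mutant is comparable with an autosomal peak of a lower wild-type score. With autosomal scores multiplied by 2, a setting chosen after the data were seen, the highest class kept 51.4% on the X and 182 of 357 (51.0%) on the autosomes. X minus autosomes was then 0.37 points (-12.7 to 13.3) in the highest class and 13.2 points (2.67 to 26.0) in the fourth. The planned setting, which multiplied autosomal scores by 0.5 and so runs against the dose, gave a difference of -44.0 points in the highest class. The gap over the whole highest class thus depends on how the dose is treated. The study's methods describe handling mutant X reads apart from autosomal ones when coverage was scaled. Whether peaks were called in that way is not given in the sources used here, and its bearing on the scores was not tested.

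**Figure D2:**
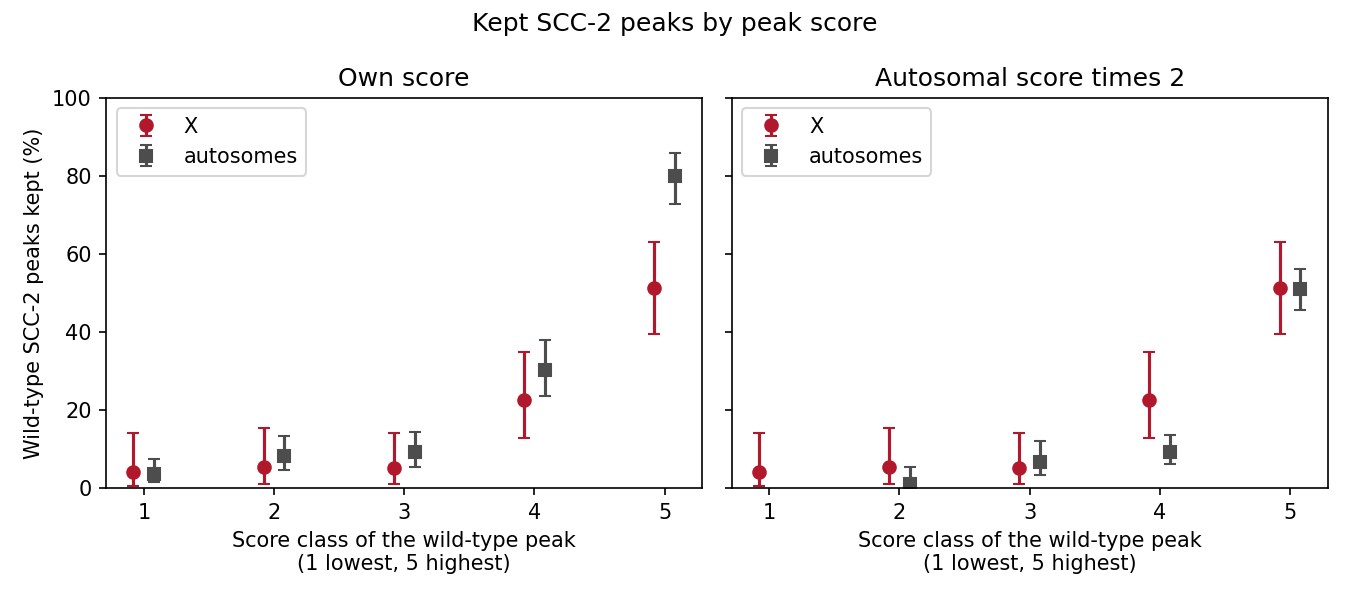
Share of wild-type SCC-2 peaks kept in the mutant (%) against the score class of the wild-type peak, for the X (circles) and the autosomes (squares), with exact 95% intervals. In the left panel the highest class holds 51.4% kept on the X and 80.0% on the autosomes; with autosomal scores times 2 (right panel) these are 51.4% and 51.0%, and class 1 has no autosomal peak.

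At the very top of the list the X stood apart under either treatment. Of the 43 wild-type peaks at the cap, 21 were on the X and 17 of these were lost (4 kept, 19%, 5.45 to 41.9). All 22 capped autosomal peaks were kept (100%, 84.6 to 100), on each of the 5 autosomes. Set against autosomal peaks from 1550, of which 66 of 69 were kept (95.7%, 87.8 to 99.1), the capped X peaks differed by -76.6 points (-90.6 to -52.4). From 1550 on the X, 14 of 34 peaks were kept (41.2%, 24.6 to 59.3), against 130 of 168 autosomal peaks from 775 (77.4%, 70.3 to 83.5). That is a difference of -36.2 points (-53.8 to -16.7).

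The capped X peaks that were lost were narrower than the 4 kept, and most had no called peak of RNA polymerase II. Their median width was 1488 bp (1237 to 2365), against 3612 bp (2199 to 6097) for the 4 kept. Of the 17 lost, 2 overlapped a wild-type peak of AMA-1, the large subunit of RNA polymerase II, against 4 of the 4 kept. Over X peaks of all scores, AMA-1 peaks lay at 38 of 237 lost (16.0%) and 74 of 297 wild-type peaks (24.9%). The median width was 1283 bp for all lost X peaks and 1336 bp for all wild-type X peaks. All 17 capped X peaks that were lost overlapped a wild-type peak of DPY-27, the SMC subunit found only in condensin I-DC. All 17 also overlapped a condensin II site. Of the 4 kept, 3 overlapped a DPY-27 peak and 4 a condensin II site. Over all 297 wild-type X peaks, DPY-27 peaks lay at 275 (92.6%) and condensin II sites at 162 (54.5%). Of the 22 kept autosomal capped peaks, 18 overlapped an AMA-1 peak, 22 a condensin II site and 3 a DPY-27 peak, and the median width was 4166.5 bp. IgG peaks lay at 2 of the 17 lost X peaks and 2 of the 22 kept autosomal peaks.

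AMA-1 overlap also went with retention over the whole highest score class, by more on the X. In this class 22 of 25 X peaks with an AMA-1 peak were kept (88.0%, 68.8 to 97.5), against 16 of 49 without one (32.7%, 19.9 to 47.5). On the autosomes these were 86 of 100 (86.0%, 77.6 to 92.1) and 42 of 60 (70.0%, 56.8 to 81.2). With minus without AMA-1 was 55.3 points (31.0 to 71.2) on the X and 16.0 points (2.05 to 30.6) on the autosomes. X peaks with AMA-1 differed from autosomal ones by 2 points (-18.2 to 14.6), whereas X peaks without AMA-1 differed from autosomal ones by -37.3 points (-54.3 to -17.4). The X peaks without AMA-1 had the higher median score, 1509, against 1270 with AMA-1. They were the narrower ones, at 1421 bp against 2198 bp.

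X minus autosomes was lower at the higher score limits, with AMA-1 as well as without it. Against autosomal peaks from 0.5 times the score, X minus autosomes in the highest class was 29.3 points with AMA-1 (8.88 to 41.1) and -8.37 points without it (-23.5 to 8.43). For X peaks from 1550 without AMA-1, 6 of 24 were kept (25.0%, 9.77 to 46.7), against 43 of 64 autosomal peaks from 775 (67.2%, 54.3 to 78.4). With AMA-1 these were 8 of 10 (80.0%, 44.4 to 97.5) and 87 of 104 (83.7%, 75.1 to 90.2). X minus autosomes with AMA-1 was -3.65 points there (-39.9 to 15.8). For capped X peaks without AMA-1, 0 of 15 were kept (0 to 21.8%), against 15 of 15 autosomal peaks from 1550 (78.2 to 100%). With AMA-1, 4 of 6 capped X peaks were kept (66.7%, 22.3 to 95.7), against 18 of 18 capped autosomal peaks (81.5 to 100%). X minus autosomes was then -33.3 points (-77.7 to 1.09), and -27.8 points (-72.4 to 2.85) against autosomal peaks from 1550, so 6 X peaks leave a wide range. AMA-1 was measured here in wild type alone, so its binding in the mutant was not analysed.

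**Figure D3:**
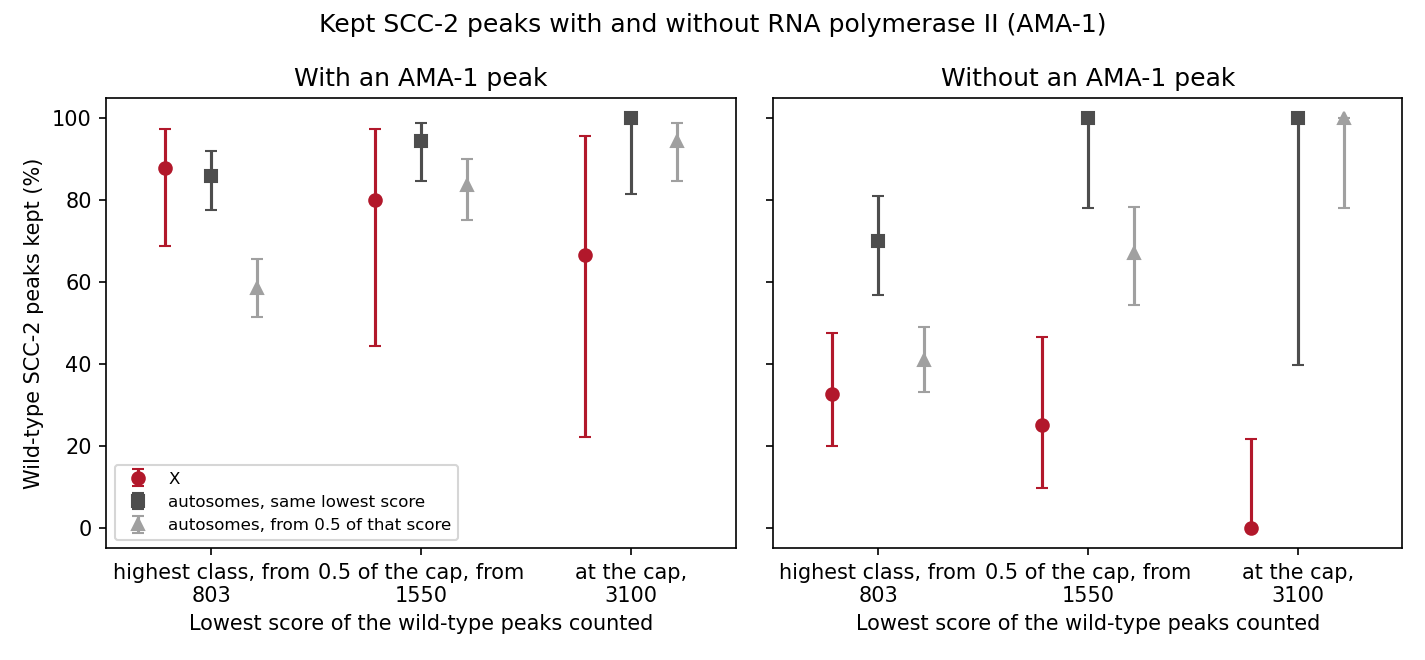
Share of wild-type SCC-2 peaks kept (%) with (left) and without (right) an overlapping AMA-1 peak, for X peaks (circles), autosomal peaks from the same lowest score (squares) and autosomal peaks from 0.5 of that score (triangles), with exact 95% intervals. The 3 score limits are nested; without AMA-1 the X lies below the squares at each limit and holds 0 of 15 peaks at the cap.

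In the 4 lower score classes together AMA-1 overlap also went with a higher kept share. On the X, 14 of 49 peaks with AMA-1 (28.6%, 16.6 to 43.3) and 8 of 174 without it (4.60%, 2.01 to 8.86) were kept. On the autosomes 54 of 307 (17.6%, 13.5 to 22.3) and 36 of 403 (8.93%, 6.34 to 12.2) were kept. Seen from the lost and kept sets, AMA-1 peaks lay at 38 of 237 lost X peaks (16.0%, 11.6 to 21.3) and 36 of 60 kept X peaks (60.0%, 46.5 to 72.4). They lay at 267 of 652 lost (41.0%, 37.1 to 44.8) and 140 of 218 kept autosomal peaks (64.2%, 57.5 to 70.6).

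Peaks of DPY-27, MIX-1 and the non-SMC subunits of condensin I and I-DC lay at most X peaks of either set. DPY-27 peaks lay at 94.1% of lost and 86.7% of kept X peaks. Of the non-SMC subunits shared by condensin I and I-DC, DPY-26 peaks lay at 92.8% of lost and 90.0% of kept X peaks. DPY-28 peaks lay at 93.2% of lost and 95% of kept X peaks, and CAPG-1 peaks at 97.9% of lost and 100% of kept X peaks. MIX-1, an SMC subunit of all 3 condensins, was at 94.1% of lost and 91.7% of kept X peaks. For DPY-28, CAPG-1 and MIX-1, capped peaks were more frequent at kept X peaks over all scores, but not in the highest score class. At X peaks with an overlap, the strongest DPY-28 peak was at the cap at 110 of 221 lost (49.8%, 43.0 to 56.6) and 47 of 57 kept peaks (82.5%, 70.1 to 91.3). For CAPG-1 these were 86 of 232 lost (37.1%, 30.8 to 43.6) and 47 of 60 kept peaks (78.3%, 65.8 to 87.9), and for MIX-1 86 of 223 lost (38.6%, 32.1 to 45.3) and 36 of 55 kept peaks (65.5%, 51.4 to 77.8). DPY-27 reached the cap at 84.8% of lost and 84.6% of kept, and DPY-26 at 84.1% of lost and 90.7% of kept X peaks with an overlap. In the highest score class, MIX-1 was at the cap at 33 of 35 lost (94.3%, 80.8 to 99.3) and 24 of 36 kept X peaks (66.7%, 49.0 to 81.4). DPY-28 was so at 33 of 36 lost (91.7%) and 30 of 36 kept (83.3%), and CAPG-1 at 32 of 36 lost (88.9%) and 32 of 38 kept (84.2%). Every X peak in either set overlapped a peak of at least 1 of the 9 condensin subunits. On the autosomes DPY-27 peaks were rare, at 3 of 652 lost (0.46%) and 14 of 218 kept peaks (6.42%).

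Condensin II did separate the sets. A condensin II site, covered by at least 2 of the 3 subunits KLE-2, HCP-6 and CAPG-2, lay at 107 of 237 lost (45.1%, 38.7 to 51.7) and 55 of 60 kept X peaks (91.7%, 81.6 to 97.2). On the autosomes it lay at 338 of 652 lost (51.8%, 47.9 to 55.7) and 198 of 218 kept peaks (90.8%, 86.2 to 94.3). SMC-4, the SMC subunit of condensins I and II that DPY-27 replaces in condensin I-DC, was at 54.4% of lost and 98.3% of kept X peaks, and at 31.0% of lost and 89.9% of kept autosomal peaks. Score moves with these overlaps. In the highest class the condensin II shares on the X were 35 of 36 lost (97.2%) and 38 of 38 kept peaks (100%). Only 1 of these X peaks lacked a condensin II site, so this class cannot show whether the separation holds there. On the autosomes of this class, SMC-4 peaks lay at 20 of 32 lost (62.5%, 43.7 to 78.9) and 122 of 128 kept peaks (95.3%, 90.1 to 98.3). Condensin II sites lay at 28 of 32 lost (87.5%) and 125 of 128 kept ones (97.7%). In the 4 lower classes together, 17 of 89 X peaks with a condensin II site were kept (19.1%, 11.5 to 28.8), against 5 of 134 without one (3.73%, 1.22 to 8.49).

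**Figure D4:**
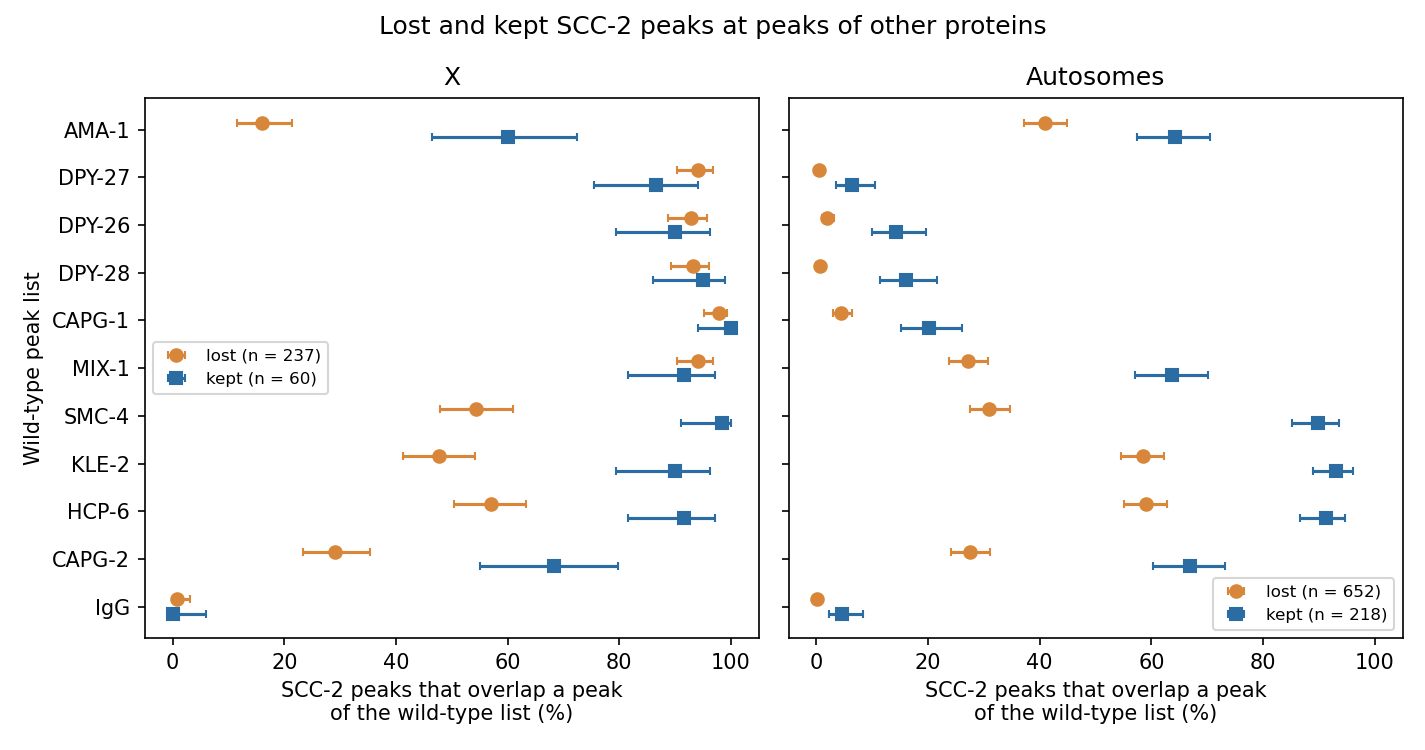
Share of lost (circles) and kept (squares) wild-type SCC-2 peaks that overlap a peak (at least 1 base) of each wild-type embryo list, on the X (left) and the autosomes (right), with exact 95% intervals. On the X the DPY-27, DPY-26, DPY-28, CAPG-1 and MIX-1 shares of lost and kept peaks lie close together, whereas AMA-1 (16.0% and 60.0%) and the condensin II subunits are lower at lost peaks.

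The 2 kinds of overlap combined gave a wide range. X peaks with both an AMA-1 peak and a condensin II site kept 33 of 43 (76.7%, 61.4 to 88.2). X peaks with the condensin II site alone kept 22 of 119 (18.5%, 12 to 26.6), with AMA-1 alone 3 of 31 (9.68%, 2.04 to 25.8), and with neither 2 of 104 (1.92%, 0.23 to 6.77). On the autosomes the kept shares were 46.9% of 277 peaks with both, 26.3% of 259 with the condensin II site alone, 7.69% of 130 with AMA-1 alone and 4.90% of 204 with neither. The median scores of these sets on the X were 854, 596, 273 and 283, so score was not the same across them.

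Within the highest class, CAPG-2 and SMC-4 peaks were the stronger ones at lost X peaks, and HCP-6 medians were close. The strongest overlapping CAPG-2 peak had a median score of 1940 at 32 lost and 460 at 30 kept X peaks. For SMC-4 these medians were 2266 at 34 lost and 671 at 38 kept peaks. The HCP-6 medians were 1656 at 35 lost and 1583 at 37 kept peaks, and those of KLE-2 2394 at 29 lost and 1475 at 37 kept peaks. HCP-6 peaks reached the cap at 15 of 35 lost (42.9%, 26.3 to 60.6) and 4 of 37 kept X peaks (10.8%, 3.03 to 25.4). Over X peaks of all scores the order of the medians was the other way for all 4. They were 368 at lost and 441 at kept peaks for CAPG-2, and 309 and 623 for SMC-4. For HCP-6 they were 592 and 1349, and for KLE-2 536 and 1292. Capped shares over all X scores were 18.8% at lost and 2.44% at kept peaks for CAPG-2, and 11.6% and 3.39% for SMC-4. For HCP-6 they were 11.9% and 9.09%, and for KLE-2 9.73% and 14.8%. On the autosomes of the highest class the order of the medians was also the reverse of that on the X. The median CAPG-2 score there was 297 at 15 lost and 766 at 104 kept peaks. The SCC-2 score itself was higher in the lost X set, with a median of 1885 against 1392 in the kept X set. On the autosomes it was lower, 936 in the lost and 1588 in the kept set.

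Kept peaks were weaker and narrower in the mutant. Each kept wild-type peak was paired with the mutant peak that shared most bases with it. Of the 278 kept peaks, 12 (2 on the X and 10 on the autosomes) met 2 or more mutant peaks, and the others of these were not used. The mutant score was lower in 266 pairs and higher in 10. In the remaining 2 both scores were at the cap of 3100, so their order is unknown. Scores of pooled lists depend on depth and on enrichment, so this is a description of the lists and not a change in binding at a site. On the X the median score of the 60 pairs was 194 in the mutant and 884.5 in wild type. On the autosomes the 218 pairs had a median of 232 in the mutant and 998 in wild type. The mutant peak was the narrower in 264 pairs (95%), and the median distance between the centres was 67 bp.

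The order of the scores was partly shared. Spearman's rho between the mutant and wild-type scores was 0.52 over the 60 X pairs and 0.64 over the 218 autosomal pairs, as a description across peaks of the same 2 pooled lists. The 4 kept X peaks at the cap had mutant scores from 951 to 2708. The 22 capped autosomal peaks had mutant scores from 211 to 3100, with a median of 1278. Of the 10 pairs with the higher score in the mutant, 9 were autosomal. The X one, chrX:6735882-6746067, was the widest peak of the wild-type list at 10186 bp, with a score of 259 in the mutant and 153 in wild type. The list of these 10 was drawn up after the values were seen.

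**Figure D5:**
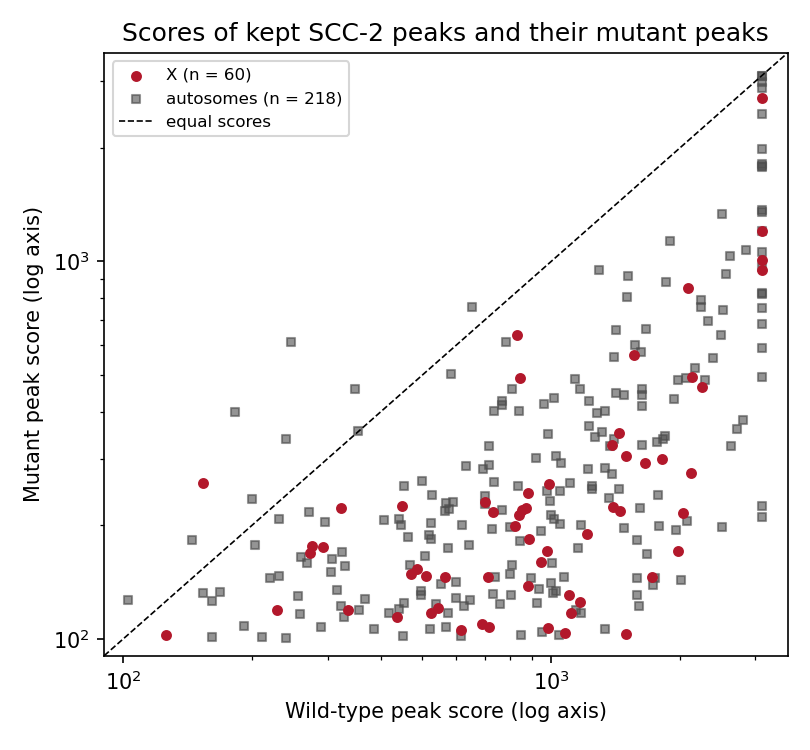
Mutant peak score against wild-type peak score for the 278 kept SCC-2 peaks, on log axes, X pairs as circles and autosomal pairs as squares, with the line of equal scores. Nearly all points (266 of 278) lie below the line, and the column at the right edge is the cap of 3100.

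The strongest individual peaks show the X contrast. Coordinates are of genome build WS220. The 5 highest X peaks that were lost, ordered by width since all were at the cap, were chrX:17543859-17546223, chrX:4208273-4210499, chrX:5428461-5430312, chrX:13700123-13701960 and chrX:16681102-16682828. Each overlapped wild-type peaks of all 9 condensin subunits. So did the kept X peaks chrX:11602802-11608898, chrX:13142591-13146646 and chrX:16928968-16932135. Only the second of the 5 lost peaks overlapped an AMA-1 peak.

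Of the 5 highest X peaks that were kept, 4 were at the cap. The widest of them, chrX:11602802-11608898, scored 2708 in the mutant and 3100 in wild type, and its mutant peak was 2237 bp wide, against 6097 bp in wild type. The same region also held mutant peaks of DPY-26, HCP-6 and KLE-2. The region chrX:13142591-13146646 scored 1200 in the mutant and 3100 in wild type, and chrX:16928968-16932135 scored 951 in the mutant and 3100 in wild type. The region chrX:5811411-5813609 scored 1010 in the mutant and 3100 in wild type, and it had no DPY-27 peak in wild type. Of these 5 peaks, chrX:10765488-10767683 was the one with no AMA-1 peak, and its score of 464 in the mutant, against 2246 in wild type, was the lowest mutant score among them.

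Strong autosomal peaks were seldom lost. The highest lost one was on chromosome I, 8049 bp wide, with a score of 3051. The next were chrV:1804120-1805991 with 2083, chrIV:14610554-14613649 with 1728, chrIV:9771735-9775012 with 1407 and chrII:5335021-5337638 with 1384. These 5 lost peaks all overlapped an AMA-1 peak, a KLE-2 peak and a condensin II site. Over the whole highest class, AMA-1 peaks lay at 3 of 36 lost X peaks (8.33%) and 14 of 32 lost autosomal peaks (43.8%). On the autosomes of this class, KLE-2 peaks lay at 27 of 32 lost and 126 of 128 kept peaks. Condensin II sites lay at 28 of 32 lost and 125 of 128 kept ones, so both overlaps were common in either set. Of the 5 widest kept peaks at the cap, chrIII:12611050-12617695 scored 2993 in the mutant, and chrII:11756112-11762159, which lay at an IgG peak, scored 2462. The peak chrV:9339045-9345008 scored 823, and the one on chromosome I scored 1206, in the mutant. Inside chrII:7808605-7814990, 6386 bp wide, lay 2 mutant peaks of 1404 and 1316 bp, and the one sharing most bases scored 211, the lowest mutant score among the capped autosomal peaks.

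The 26 new peaks divided into 7 on the X and some wider ones on the autosomes. The 7 new X peaks (10.1% of 69, 4.18 to 19.8) had a median score of 189 and a median width of 1218 bp. These were 194 and 1366 bp for the 62 mutant X peaks that met a wild-type peak. All 7 new X peaks overlapped a wild-type peak of some condensin subunit. The highest, chrX:11030490-11032395, scored 412 and lay 61041 bp from the nearest wild-type SCC-2 peak, with AMA-1, HCP-6 and KLE-2 peaks in wild type and a KLE-2 peak in the mutant. The other 6 were chrX:6091429-6092721 with a score of 213, chrX:9931876-9933093 with 204, chrX:13583369-13585217 with 189, chrX:1319385-1320555 with 184, chrX:109665-110771 with 145 and chrX:2057559-2058555 with 125. Of the 7, 3 lay at an AMA-1 peak and 3 at a condensin II site (42.9% each), against 39 (56.5%) and 59 (85.5%) of all 69 mutant X peaks, of which all 69 overlapped some condensin subunit.

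The 19 new autosomal peaks (7.72% of 246, 4.71 to 11.8) had a median score of 257 and a median width of 2165 bp, wider than the 1332 bp of the 227 mutant autosomal peaks that met a wild-type peak. Chromosome II held 10 of them, or 19.6% (9.82 to 33.1) of its 51 mutant peaks. Neighbouring calls are counted apart here, although they may not be separate sites. Among the 10, chrII:6825266-6830474, chrII:6830566-6833423 and chrII:6834703-6836915 follow one another closely. The highest new autosomal peak was chrIII:7443992-7448369 with a score of 1103. Next were chrII:6825266-6830474 with 952, chrII:9059650-9062872 with 767, chrV:10715239-10717784 with 592 and chrII:14337424-14339490 with 434. The first 4 of these 5 overlapped a DPY-26 peak of the mutant. Over all 19, 6 overlapped a mutant DPY-26 peak (31.6%, 12.6 to 56.6), close to the 30.5% of all 246 autosomal mutant SCC-2 peaks, and 0 a wild-type DPY-26 peak (0 to 17.6%).

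Over all chromosomes a larger share of SCC-2 peaks than of the peaks of 3 condensin subunits was kept, though not on the autosomes for DPY-26. DPY-26, measured in 2 mutant and 5 wild-type replicates, kept 22 of 2420 wild-type peaks (0.909%), 5 of 2376 on the X and 17 of 44 on the autosomes (38.6%, 24.4 to 54.5). HCP-6, with 2 mutant and 4 wild-type replicates, kept 42 of 1677 peaks (2.5%), 1 of 304 on the X (0.33%) and 41 of 1373 on the autosomes (2.99%). KLE-2, with 2 mutant and 3 wild-type replicates, kept 183 of 1474 peaks (12.4%), 24 of 236 on the X (10.2%, 6.63 to 14.8) and 159 of 1238 on the autosomes (12.8%, 11 to 14.8). The antibodies and the numbers of pooled replicates differ, so the levels of these shares are given side by side only. As with SCC-2, KLE-2 on the whole X was little below the autosomes, and in its highest score class it kept 17 of 60 X peaks (28.3%, 17.5 to 41.4) and 119 of 235 autosomal peaks (50.6%, 44.1 to 57.2).

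Among SCC-2 peaks, a mutant condensin peak was found more often at kept than at lost ones. Wild-type KLE-2 and HCP-6 peaks were also stronger at kept SCC-2 peaks, and their score was not held equal here. Median KLE-2 scores were 536 at lost and 1292 at kept X peaks, and 592 and 1804 on the autosomes. Median HCP-6 scores on the autosomes were 547 at lost and 1699 at kept peaks. Of lost X peaks with a wild-type KLE-2 peak, 2 of 113 had a mutant KLE-2 peak (1.77%, 0.22 to 6.25), against 13 of 54 kept X peaks (24.1%, 13.5 to 37.6). On the autosomes these were 13 of 381 lost (3.41%, 1.83 to 5.76) and 103 of 203 kept peaks (50.7%, 43.6 to 57.8). For DPY-26 none of 220 lost X peaks with a wild-type peak had a mutant peak (0 to 1.66%), against 5 of 54 kept ones (9.26%, 3.08 to 20.3). A mutant DPY-26 peak lay at 69 of 218 kept autosomal SCC-2 peaks (31.7%, 25.5 to 38.3) but at 1 of 652 lost ones. For HCP-6 a mutant peak lay at 0 of 135 lost (0 to 2.70%) and 1 of 55 kept X peaks with a wild-type HCP-6 peak (1.82%, 0.046 to 9.72), so no difference was detectable there. On the autosomes HCP-6 gave 3 of 385 lost (0.78%, 0.16 to 2.26) and 15 of 199 kept peaks (7.54%, 4.28 to 12.1). Of the 69 kept autosomal peaks with mutant DPY-26, 17 also overlapped a wild-type DPY-26 peak. Over all chromosomes 66 of the 88 mutant DPY-26 peaks (75%) were new. For HCP-6 0 of its 45 mutant peaks (0%) were new, and for KLE-2 10 of 201 (4.98%) were.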

How the data were processed

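Peak lists of SCC-2 in sdc-2 mutant and wild-type embryos were compared with 15 further lists of the series. Reads had been mapped by the authors with Bowtie 0.12.7 on genome build WS220 and pooled over replicates, and MACS calls present in most replicates were kept. The score in the deposited lists is the caller's p-value as a multiple of its negative log10, capped at 3100, and served for ranking. Members and lists were chosen with earlier results of these data known.

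Peaks overlapped with at least 1 shared base. Condensin sites were bases under at least 2 of 3 non-SMC subunits, 1653 for condensin I and I-DC and 1163 for condensin II. Shares have exact 95% intervals. Intervals of differences combine the exact intervals of both shares by the square-and-add method. Chromosome spans end at the last base of any list. Overlap counting was tested on simulated intervals. Python 3.11.15, numpy 2.4.6, scipy 1.17.1 and pandas 2.3.3 were used.

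Named peaks were the 5 highest scores each of kept and lost X peaks and of kept, lost and new autosomal peaks, and all new X peaks, ties by width. Coordinates are given for those on chromosomes other than I. Depth per sample was not computed, since the lists carry no read counts. Gene annotation, genome sequence and 2 FPKM tables were not used here.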

Additional observations from a re-analysis of the deposited data

How the results depend on the processing

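No paired analysis was possible because each genotype has 1 list called on pooled reads, and for the same reason no replicate could be left out. Over all chromosomes the kept share stayed below the lost share under each overlap and threshold tried, except with the wild-type list reduced to the 315 highest scores (from 619.6), which kept 61.3% in all, 46.7% on the X and 67.3% on the autosomes, a difference of -20.5 points, with 35.6% of mutant peaks new. Requiring 50% of the peak's length gave 20.4% kept in all and 21.6% on the autosomes. With both lists from their median score the X kept 15.0%, a difference of -11.9 points. With the mutant list alone from its median score, 12.4% were kept in all, 8.75% on the X and 13.7% on the autosomes. Overlap of centres, a distance of 500 bp, wild-type X peaks from 200.9 (2 times the lowest score) and leaving out peaks at an IgG peak (chosen after the data were seen) kept all 5 shares and differences within the interval of the value as reported, with the X limit giving a difference of -0.99 points. In the highest score class the difference between X and autosomes was -44.0 points with autosomal scores times 0.5 and 0.37 with them times 2. By overlap of centres, 106 of 108 overlap shares stayed within their interval, and the other 2 were lower. These 2 were shares of the kept autosomal SCC-2 peaks. With mutant DPY-26 peaks the share was 22.5%, against 31.7% by 1 shared base. With mutant KLE-2 peaks it was 38.1%, against 47.7%. Peaks removed by the authors' replicate filter leave gaps in the numbering, 32 of 347 in the mutant and 420 of 1587 in wild type. If each of the 32 had met 1 lost peak, at most 22.9% of X and 27.8% of autosomal peaks would be kept, a bound chosen after the data were seen, which leaves out numbers past the last one listed. Peak calls cannot show binding below the caller's threshold, so a lost peak is not an absence of SCC-2.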
